A study of Homo sapiens with 9 samples.

Results

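Within 6 RNA-seq libraries that carry the same genotype label, sgL1, the libraries numbered 1 to 3 were set against the libraries numbered 4 to 6. These are 6 of the 9 libraries of the series, and the other 3, labelled sgCtrl, entered no test and are given as levels only. All 9 come from MDA-MB-231, an established human line derived from a triple-negative breast cancer. By the series title all cells were kept hypoxic for 6 hours. The title calls the perturbation a knockdown, whereas the design text names a knockout of UFL1 or UFM1. The label sgL1 is read here as a guide RNA group against UFL1. The labels do not say what separates numbers 1 to 3 from 4 to 6, whether a guide, a clone, a culture or a day, nor whether libraries came from separate cultures, so the spread between them may be technical. The sets were chosen on earlier-seen values of these same libraries, a principal component and the levels of UFL1, SPP1, IL13RA2 and SPNS2. Every call below therefore describes a difference against the spread within the sets and is no independent test of it.

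UFMylation is the attachment of the small protein UFM1 to other proteins, much of it at the surface of the endoplasmic reticulum (ER), where it takes part in the handling of stalled ribosomes and in ER quality control. UFL1 is the ligase that transfers UFM1 to its targets and works with the ER-anchored adaptor DDRGK1. Hypoxia stabilises hypoxia-inducible factors (HIF), which switch on genes of glucose use, vessel growth and lipid storage. MDA-MB-231 cells are mesenchymal in character and are known for secreting matrix proteases and inflammatory cytokines.

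The libraries held 15420073 to 17038409 counts on named genes, and 14837 genes were tested. All 7 identity genes of the line were measured, with VIM, the mesenchymal filament protein, at 1164 to 1258 CPM (counts scaled by TMM to a common library size) in the 6 libraries. Markers of other cell types were summed as lists. Of 14 leukocyte markers 7 had at most 3 counts in the 6 libraries together, PTPRC among them, and the list summed to 4.66 to 5.70 CPM in libraries 1-3 and 4.84 to 7.01 CPM in 4-6. Of 11 fibroblast markers 5 had at most 3 counts, and COL1A2 and LUM had 0, which allows up to 3 counts. COL1A1, PDGFRB, PDPN and ACTA2 were measured at 270 to 903 counts, and that list summed to 28.2 to 32.8 CPM in libraries 1-3 and 26.1 to 29.3 CPM in 4-6. The 8 endothelial markers, led by TIE1 and PECAM1, summed to 33.8 to 36.9 CPM in libraries 1-3 and 30.2 to 33.0 CPM in 4-6, without overlap. The 10 luminal breast markers, led by KRT19, summed to 262 to 274 and 235 to 240 CPM, again without overlap. The part of these genes in the results was not tested. Mitochondrial genes took 3.06% to 3.67% of counts, with the lowest share in sgL1 3. The RNA comes from whole cultures, so fewer cells of a kind and less RNA per cell cannot be told apart.

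The sets differed in many genes by small amounts. Higher in libraries 1-3 were 317 genes, 2.14% of those tested, and lower were 276, 1.86% (edgeR quasi-likelihood test on counts, Benjamini-Hochberg adjusted p under 0.05, called below). The median log2 fold change, libraries 1-3 over 4-6, was 0.24 among the higher and -0.21 among the lower genes, and 14 and 10 genes respectively differed at least 1.5-fold. The sets did not overlap in 1936 tested genes with 1-3 higher, 13.0%, and in 1691 with 1-3 lower, 11.4%. Of the 593 called genes 569 were protein-coding.

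The called genes differed from the rest in base composition and in level. Their median level was 88.3 CPM for the higher and 99.6 CPM for the lower genes, against 21.8 CPM over all tested genes. Transcripts of the genes higher in libraries 1-3 had a median GC content of 60.4% and those of the lower genes 38.9%, against 47.8% over all tested genes. The interquartile ranges were 56.8% to 63.9%, 37.1% to 41.3% and 41.8% to 55.7%. When tested genes were cut into deciles by GC content, the median log2 fold change climbed from -0.12 in the lowest decile to 0.14 in the highest. The highest decile held 145 of the higher and 2 of the lower genes, and the lowest decile held 117 of the lower genes. The higher genes also lay in shorter loci, with a median span of 18.4 kb against 51.2 kb for the lower and 28.4 kb for all tested genes.

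The same slope was visible library by library. The level of the highest GC decile relative to the lowest, on a log2 scale centred on each gene's mean over 9 libraries, was 0.04 in sgL1 1, 0.23 in sgL1 2 and 0.21 in sgL1 3. It was -0.21 in sgL1 4, -0.02 in sgL1 5 and -0.09 in sgL1 6. The 3 sgCtrl libraries lay between -0.10 and -0.02, inside the range of libraries 4-6. The sets thus did not overlap in this measure, sgL1 2, 3 and 4 were farthest from 0, and sgL1 1 and sgL1 5 lay nearest to each other across the sets.

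**Figure D1:**
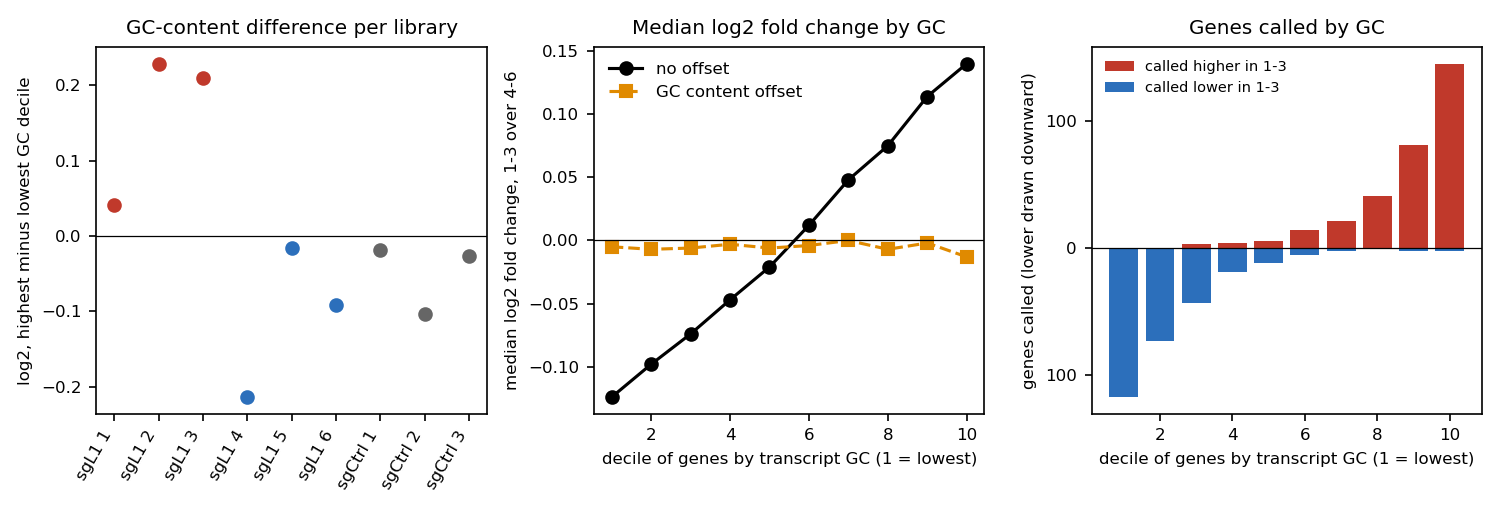
GC content and the difference between the sets. Left, log2 level of the decile of genes with the highest transcript GC content minus the decile with the lowest, 1 point per library, from 0.23 in sgL1 2 to -0.21 in sgL1 4. Middle, median log2 fold change of libraries 1-3 over 4-6 in each GC decile, without (black) and with (orange) the GC content offset; the black line climbs from -0.12 to 0.14 and the orange line stays near 0. Right, numbers of genes called higher (red, upward) and lower (blue, downward) in each decile.

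Because of this slope most fold changes and calls are also given after an offset. It removes, in each library, the smooth dependence of level on transcript GC content. Levels in CPM, marker sums, principal components and differences between pairs of libraries are given without it. This offset was added after the slope had been seen. With it 44 genes were called higher, 0.297% of those tested, and 56 lower, 0.377%. Of the 317 and 276 genes called without the offset, 32 and 27 were also called with it. Another 12 higher and 29 lower genes were called with the offset only. Among these, GAPDH and ACTG1 moved from -0.034 and -0.031 to -0.146 and -0.134, and EREG moved from 0.055 to 0.178. All of them were named after their values were seen. Genes called higher with the offset had a median GC content of 47.5% and a median level of 104 CPM. Those called lower had 51.6% and 229 CPM, beside 47.8% and 21.8 CPM over all tested genes. Of the 593 called genes 90.1% lost their call, and their median log2 fold change became 0.12 for the higher and -0.12 for the lower genes, the sign reversing in 4 of the higher genes. Whether the slope arose in the cells or in library preparation was not tested.

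**Figure D2:**
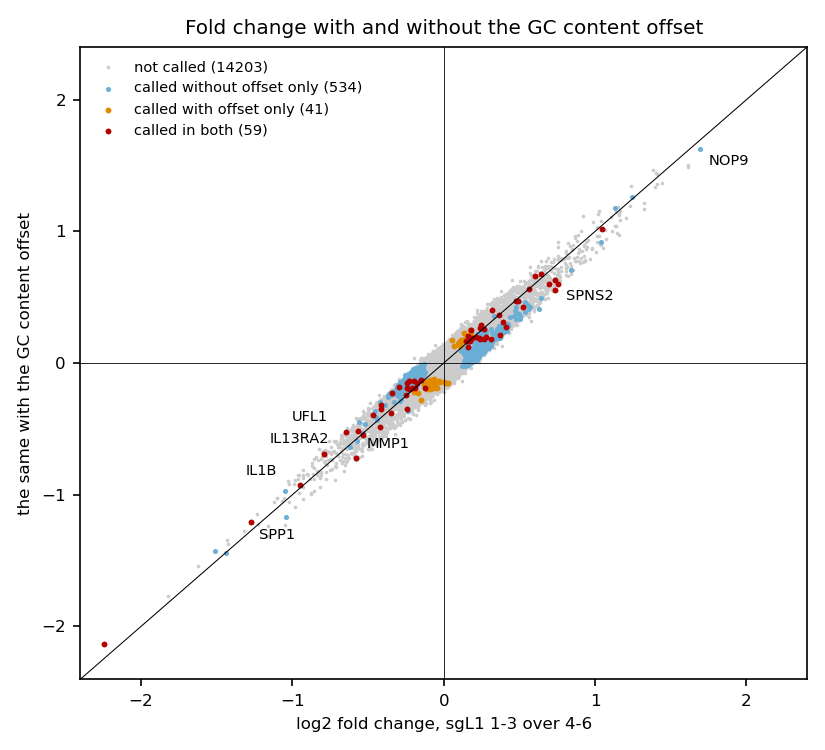
Log2 fold change of libraries 1-3 over 4-6 for each tested gene without (horizontal axis) and with (vertical axis) the GC content offset. Red points are the 59 genes called in both fits, light blue points the 534 called without the offset only and orange points the 41 called with it only; 2 uncalled genes lie outside the axes. SPP1, IL1B, IL13RA2 and MMP1 lie close to the diagonal, at nearly the same value in both fits.

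UFL1 (ENSG00000014123, chromosome 6, 96521595 to 96555276, plus strand, GRCh38) measured 15.2, 13.0 and 12.8 CPM in libraries 1-3 and 22.8, 20 and 21.2 CPM in libraries 4-6. The sgCtrl libraries held 27.4, 25.3 and 25.4 CPM. All libraries 1-3 lay below all libraries 4-6, which in turn lay below sgCtrl. The log2 fold change between the sets was -0.65 (SE 0.10) and -0.52 with the offset, and the call held in 6 of 6 fits that left out a library, with and without the offset. Since UFL1 helped to choose the sets, this is a description. The antisense gene UFL1-AS1 overlaps the locus, and its reads cannot be told apart from those of UFL1 here. The 15 other tested genes within 5 Mb of UFL1 had a median log2 fold change of -0.22, and -0.14 with the offset, and 1 of them was called, lower, in the fit without the offset. Their median GC content was 39.5%.

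Of 11 UFMylation genes tested, 3 were called without the offset and 1, UFL1, with it. The shares over all tested genes were 2.14% higher and 1.86% lower, and 0.297% and 0.377% with the offset. DDRGK1, the adaptor of UFL1, measured 50.6, 57.5 and 52.0 CPM in libraries 1-3 and 42.2, 47.3 and 42.1 CPM in 4-6, a log2 fold change of 0.28 (SE 0.07). CYB5R3, a reductase at the ER membrane, gave 0.17 (SE 0.05). With the offset these values were 0.16 and 0.05 and were not called, and each call held in 3 of 6 fits with a library left out. UFM1 itself gave -0.10 (SE 0.07) and its levels overlapped, from 51.4 to 58.3 CPM in libraries 1-3 and from 52.8 to 60.8 CPM in 4-6. The conjugating enzyme UFC1 -0.10, the adaptor CDK5RAP3 0.20 and the protease UFSP2 -0.03, none of them called.

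SPP1, IL1B and IL13RA2 were lower in libraries 1-3 with and without the offset. SPP1, which encodes the secreted phosphoprotein osteopontin (chromosome 4, 87975650 to 87983426, plus strand), measured 33.4, 31.6 and 28.8 CPM in libraries 1-3 and 76.7, 74.9 and 74.4 CPM in libraries 4-6. In sgCtrl it measured 10.7, 9.60 and 9.95 CPM. The sets lay far apart relative to their spread, and sgCtrl lay below both. SPP1 and IL13RA2 helped to choose the sets, so for both genes this separation is a description. The log2 fold change was -1.27 (SE 0.07), or -1.21 with the offset.

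IL1B encodes interleukin-1 beta, an inflammatory cytokine (chromosome 2, 112829751 to 112836903, minus strand). It measured 24.3, 21.4 and 24.6 CPM in libraries 1-3 and 46.0, 42.0 and 47.3 CPM in 4-6. In sgCtrl it lay between 2.18 and 2.43 CPM. The ordering was that of SPP1, with sgCtrl lowest and libraries 4-6 highest. Between the sets the log2 fold change was -0.95 (SE 0.08), or -0.93 with the offset. IL13RA2, the decoy receptor for interleukin-13 (chromosome X, 115003975 to 115019977, minus strand), measured 5.57, 4.99 and 5.28 CPM in libraries 1-3 and 9.28, 9.72 and 8.29 CPM in 4-6. Its log2 fold change was -0.79 (SE 0.15), or -0.69 with the offset, and its sgCtrl levels of 1.44 to 2.11 CPM were again the lowest.

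The matrix proteases MMP1 and MMP9 had the same order of sets. Another protease gene, ADAMTS1, named after its values were seen, was called higher in libraries 1-3 in both fits (0.18, SE 0.05, and 0.17 with the offset). The ADAMTS1 call held in 2 of 6 fits with a library left out, and in 1 of 6 with the offset. MMP1, interstitial collagenase (chromosome 11, 102789920 to 102798160, minus strand), measured 590, 572 and 615 CPM in libraries 1-3, 882, 884 and 852 CPM in 4-6, and 242 to 254 CPM in sgCtrl. The log2 fold change was -0.57 (SE 0.04), or -0.52 with the offset. The gene WTAPP1 overlaps MMP1 on the other strand. MMP9, a gelatinase (chromosome 20, 46008908 to 46016561), measured 5.96, 5.99 and 5.85 CPM in libraries 1-3 and 8.45, 8.37 and 9.75 CPM in 4-6. Its transcript is GC-rich, at 62.4%, so the offset moved it further from 0, from -0.58 (SE 0.14) to -0.72. Without the offset its call held in 2 of 6 fits with a library left out, and with the offset in 5.

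SERPINB2, an inhibitor of plasminogen activators (chromosome 18, 63871692 to 63903890), measured 111, 108 and 105 CPM in libraries 1-3 and 154, 146 and 147 CPM in 4-6, a log2 fold change of -0.47 (SE 0.05) and of -0.39 with the offset. TGFBI, an adhesion protein of the matrix, gave -0.35 (SE 0.06), INHBA, a subunit of activins, -0.42 (SE 0.07), and the integrin subunit ITGA6 -0.24 (SE 0.04). THBS1, the matrix glycoprotein thrombospondin, gave -0.21 (SE 0.04). All of these stayed called with the offset, at -0.38, -0.32, -0.19 and -0.19. PMEPA1, a feedback inhibitor of TGF-beta signalling chosen after its values were seen, gave -0.42 (SE 0.07), or -0.48 with the offset.

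Of 34 tested genes of the extracellular matrix and its remodelling, 4 were called higher and 6 lower without the offset, and 1 higher and 6 lower with it. The lower genes shared by both fits were SPP1, THBS1, MMP1, MMP9 and TGFBI. The higher gene in both was COL7A1, anchoring-fibril collagen, at 260, 311 and 301 CPM in libraries 1-3 and 210, 238 and 224 CPM in 4-6 (log2 fold change 0.37, SE 0.07, and 0.21 with the offset). COL7A1 was named after its values were seen. The median of the list was 0.03, and -0.03 with the offset, beside 0.001 and -0.005 over all tested genes. Of all tested genes 2.14% were called higher and 1.86% lower, and 0.297% and 0.377% with the offset.

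**Figure D3:**
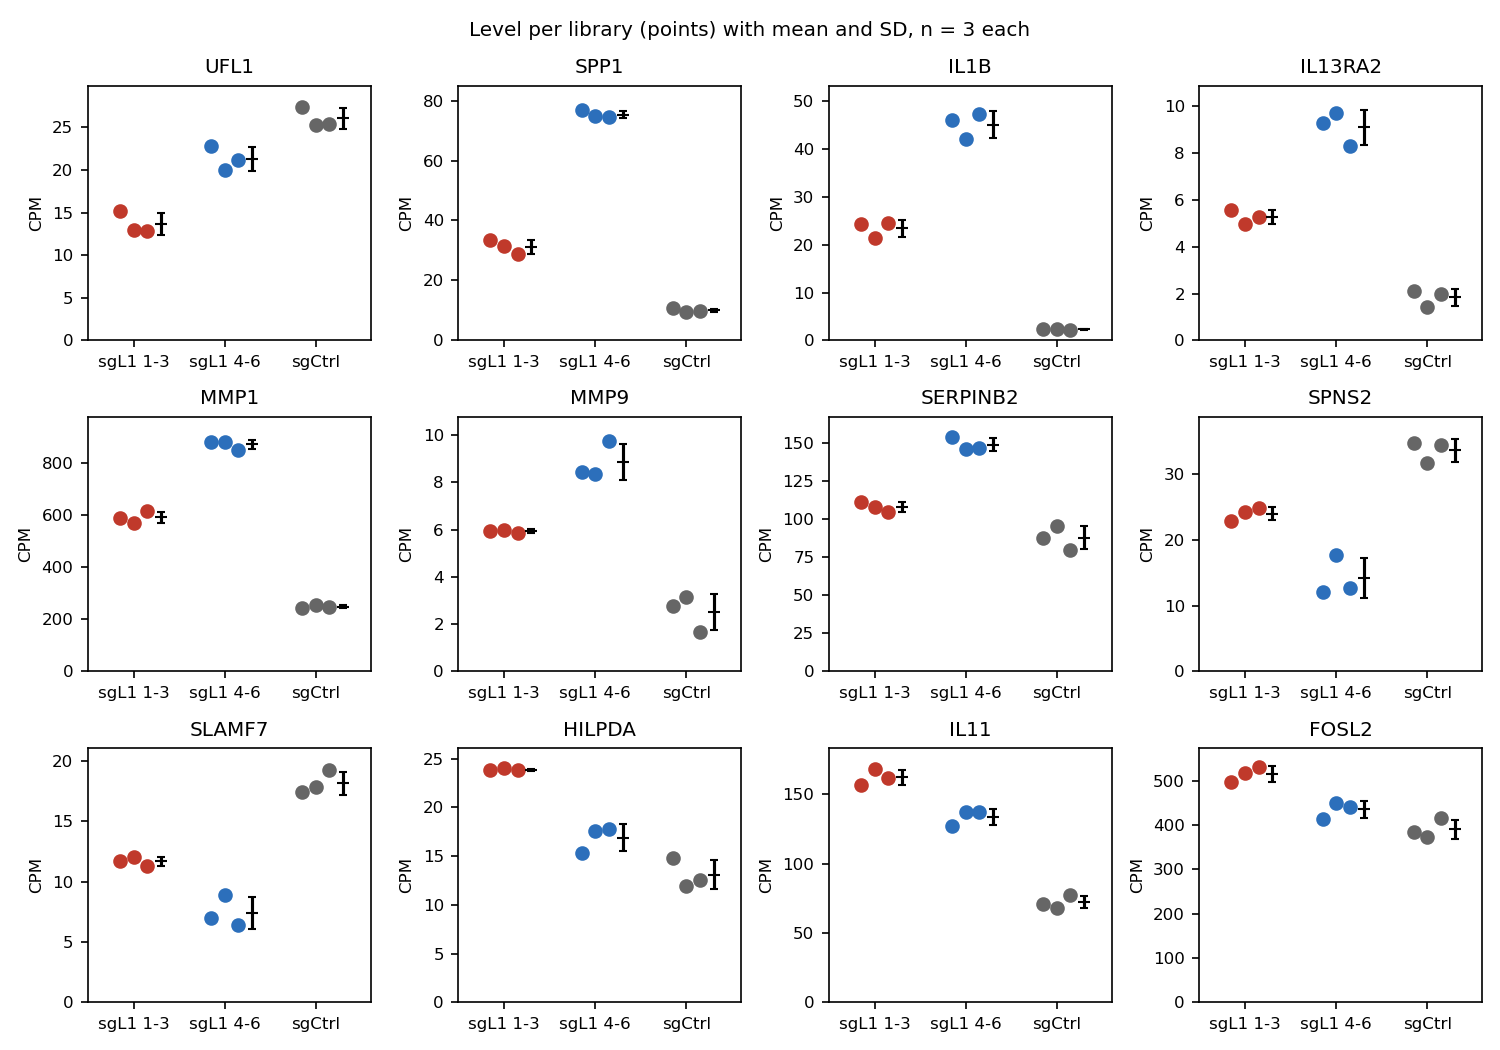
Levels in CPM of 12 genes in libraries 1-3 (red), 4-6 (blue) and sgCtrl (grey), with the mean and SD of 3 libraries beside the points; each axis starts at 0. For SPP1, IL1B, IL13RA2, MMP1, MMP9 and SERPINB2 libraries 4-6 are highest, and for SPNS2 and SLAMF7 they are lowest. The sgCtrl libraries are highest for UFL1, SPNS2 and SLAMF7.

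The genes higher in libraries 1-3 with and without the offset covered lipid signalling, lipid synthesis and the response to low oxygen, among others. SPNS2, the exporter of the lipid signal sphingosine 1-phosphate (chromosome 17, 4498838 to 4539035, plus strand), measured 22.8, 24.2 and 24.8 CPM in libraries 1-3 and 12.1, 17.6 and 12.7 CPM in 4-6. Within 4-6, sgL1 5 stood nearest to libraries 1-3. SPNS2 too helped to choose the sets, so its separation is a description. The log2 fold change was 0.76 (SE 0.11), or 0.60 with the offset, and sgCtrl lay above both sets at 31.6 to 34.7 CPM. MYBBP1A overlaps SPNS2 on the other strand. SLAMF7, a surface receptor better known from immune cells, measured 11.7, 12 and 11.3 CPM in libraries 1-3, 6.96, 8.90 and 6.37 CPM in 4-6, and 17.4 to 19.2 CPM in sgCtrl. Its log2 fold change was 0.65 (SE 0.13), or 0.68 with the offset.

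Of 33 tested genes of cholesterol and fatty acid synthesis and their regulators, 6 were called, all higher in libraries 1-3. Over all tested genes 2.14% were called higher, and 0.297% with the offset. The list median was 0.12, and 0.06 with the offset, where 2 remained called. Among these was SCD, the stearoyl-CoA desaturase (0.16, SE 0.04, and 0.17 with the offset). SCD measured 517, 518 and 543 CPM in libraries 1-3, 461, 466 and 482 CPM in 4-6, and 535 to 544 CPM in sgCtrl. LSS, lanosterol synthase (0.49, SE 0.11), and FADS2, a fatty acid desaturase (0.21, SE 0.04), were called without the offset only.

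HIF targets were the list with the most genes called higher, though the lists differ in size. Of 34 tested, 7 were called, all higher in libraries 1-3, beside 2.14% called higher over all tested genes. With the offset 1 was called, beside 0.297% over all tested genes. The list median was 0.08 in both fits. HILPDA, which blocks the breakdown of stored lipid (chromosome 7, 128455849 to 128458418, plus strand), measured 23.8, 24.0 and 23.8 CPM in libraries 1-3 and 15.3, 17.6 and 17.8 CPM in 4-6. In sgCtrl it lay between 11.9 and 14.8 CPM, below both sets. Its log2 fold change was 0.49 (SE 0.09), or 0.47 with the offset. PFKFB4, a regulator of glycolysis (0.21, SE 0.05), DDIT4, an inhibitor of mTORC1 (0.21, SE 0.05), and the transcription factor BHLHE40 (0.14, SE 0.04) gave 0.11, 0.10 and 0.10 with the offset and were then not called. Without the offset their calls held in 4, 3 and 0 of 6 fits with a library left out. Among 23 tested glycolysis genes 3 were higher and 1 lower without the offset, and 1 and 1 with it. Called lower over all tested genes were 1.86%, and 0.377% with the offset. HK2, hexokinase, stayed higher at 0.16 (SE 0.04) and 0.12 with the offset, but was called in 3 of 6 fits with a library left out and in none of the 6 with the offset.

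Immediate early and AP-1 genes, which encode rapidly induced transcription factors, had 5 of 25 tested members called, all higher in libraries 1-3. Over all tested genes 2.14% were called higher. With the offset 1 member was called, beside 0.297% of all tested genes called higher. That member, FOSL2, measured 497, 518 and 532 CPM in libraries 1-3, 414, 451 and 441 CPM in 4-6, and 374 to 415 CPM in sgCtrl. This gave a log2 fold change of 0.24 (SE 0.04), or 0.18 with the offset. MAFK went from 0.39 (SE 0.07) to 0.24 and JUNB from 0.25 (SE 0.07) to 0.09, neither called with the offset. The transcripts of MAFK and JUNB hold 63.4% and 64.9% GC.

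Genes of inflammation went both ways. Of 24 tested NF-kB and cytokine genes, 4 were called higher and 3 lower without the offset, and 1 higher and 2 lower with it. The shares over all tested genes were 2.14% and 1.86% without the offset, and 0.297% and 0.377% with it. Besides IL1B, the chemokine CXCL8 was lower at -0.20 (SE 0.04), and this became -0.06 with the offset, not called. Its transcript has 33.4% GC. IL11, a cytokine of the interleukin-6 family, measured 157, 168 and 162 CPM in libraries 1-3, 127, 137 and 137 CPM in 4-6, and 68.3 to 77.3 CPM in sgCtrl. For IL11 the log2 fold change was 0.28 (SE 0.05), or 0.20 with the offset. The subunit gene NFKB2 went from 0.23 (SE 0.05) to 0.09.

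The remaining lists had few members called, or lost them with the offset. For comparison, 2.14% of all tested genes were called higher and 1.86% lower, and 0.297% and 0.377% with the offset. Of 27 genes under ATF4, a transcription factor of the integrated stress response, 4 were called higher and 1 lower without the offset, among them CEBPB at 0.23 (SE 0.05) and 0.06 with the offset. With the offset 0 were called, with 2 higher and 3 lower at an unadjusted p under 0.05. DESeq2 and limma-voom, run without the offset, each called 4 higher and 1 lower. Of 27 ER chaperones and targets of ATF6 and XBP1, P4HB, protein disulfide isomerase (0.16, SE 0.04), was called without the offset and HSPA5, the chaperone BiP (0.11, SE 0.04, and 0.13 with the offset), with it. HSPA5 was named after its values were seen. Of 25 TGF-beta and SMAD genes 4 were higher and 1 lower without the offset, and LTBP1 (0.23, SE 0.05) was higher and INHBA lower with it.

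In the next 3 lists edgeR's test called 0 members. Of 28 type I interferon genes 1 was higher and 4 were lower at an unadjusted p under 0.05, and DESeq2 and limma-voom called 0. Of 23 p53 targets 4 were higher and 2 lower at that level, and both tools again called 0. Of 33 genes of COPII and COPI transport between ER and Golgi 7 were higher and 5 lower at that level. There DESeq2 called 1 higher and limma-voom 0. With the offset the higher and lower genes at that level were 0 and 2 for interferon, 1 and 0 for p53, and 6 and 1 for COPII and COPI. Again 0 were called. Among 16 tested heat shock genes HSP90AA1, the inducible form of the chaperone HSP90, was lower at -0.23 (SE 0.03) and -0.20 with the offset, called in 6 of 6 fits each way. Its processed copy HSP90AA2P was lower too, at -0.42 (SE 0.09), so the division of shared reads between the pair is uncertain.

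**Figure D4:**
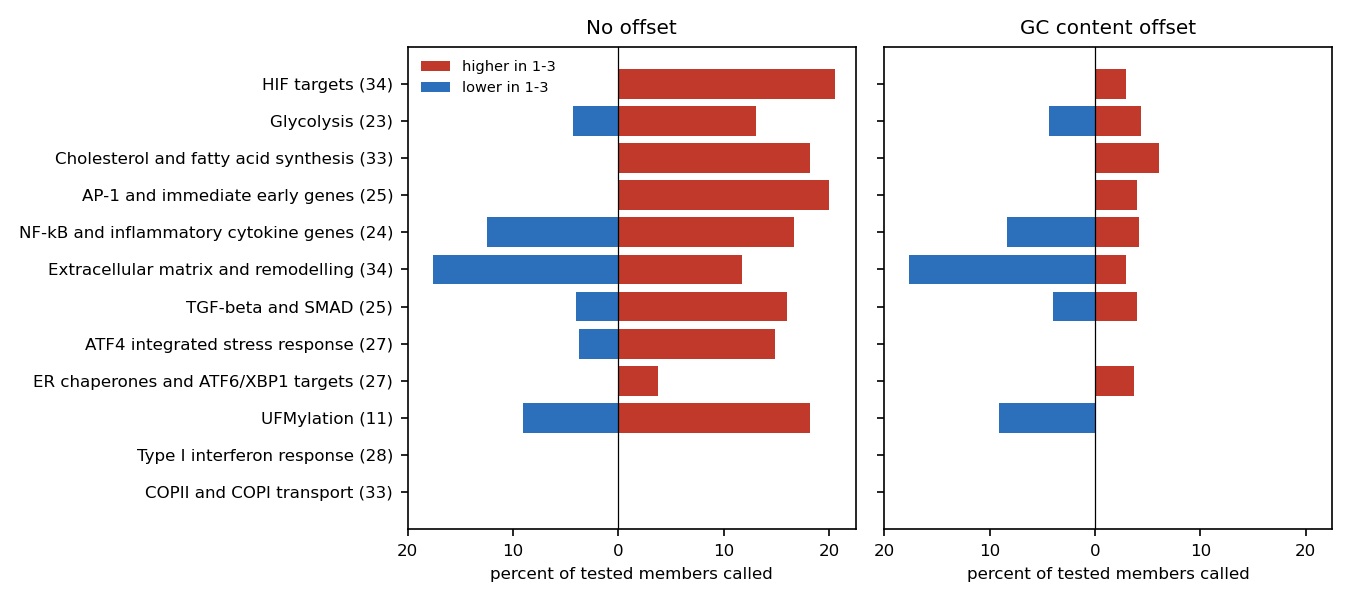
Percent of tested members called higher (red, to the right) and lower (blue, to the left) in libraries 1-3 for 12 gene lists, without the offset and with it; the number tested stands in brackets. Over all tested genes 2.14% were higher and 1.86% lower without the offset, and 0.297% and 0.377% with it.

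Fold changes at least 2-fold occurred mostly in genes of low level. Of the 12 genes raised most, NOP9, a nucleolar protein, had the largest log2 fold change, 1.69 (SE 0.30), at 4.86, 5.61 and 9.44 CPM in libraries 1-3 and 2.85, 1.30 and 1.98 CPM in 4-6. With the offset the value was 1.63 and was not called with all 6 libraries, although it was in 4 of 6 fits with a library left out. CIDEB overlaps NOP9 on the other strand and LTB4R2 on the same strand. FAN1, a DNA repair nuclease, had 1.25 (SE 0.35) with 4.40, 1.31 and 2.58 CPM in libraries 1-3. Its call held in 1 of 6 fits with a library left out. RFPL4AL1, at 1.05 (SE 0.23), has a near-identical copy and is uncertain. CDIP1, HID1, MEGF6, TBC1D9B, IGFN1, CSPG4 and PCSK1N completed the 12 together with SPNS2 and SLAMF7, at 0.63 to 1.04. Of these 12, RFPL4AL1, SPNS2, MEGF6, TBC1D9B, IGFN1 and SLAMF7 were called with the offset as well. With the offset and a library left out, these calls held in 2, 5, 1, 3, 1 and 4 of 6 fits, in that order.

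The 12 genes lowered most were SPP1, FAM83B, IL1B, IL13RA2, UFL1, RYR3, MMP9, MMP1, SOCS2, MAN1A1, SERPINB2 and CROT. FAM83B, with 0.972 to 1.13 CPM in libraries 1-3 and 1.96 to 2.61 CPM in 4-6, gave -1.05 (SE 0.31) and was called in none of the 6 fits with a library left out. RYR3, a calcium release channel, and the mannosidase MAN1A1 gave -0.62 (SE 0.18) and -0.52 (SE 0.13), and each was called in 1 of 6 such fits. SOCS2, a suppressor of cytokine signalling, gave -0.53 (SE 0.15). FAM83B, RYR3, SOCS2, MAN1A1 and CROT were not called with the offset, although their values moved little, to -0.97, -0.64, -0.53, -0.47 and -0.37; for CROT the value without it was -0.45 (SE 0.13).

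How far a call rested on single libraries differed between the fits. Without the offset the number of higher and lower genes was 23 and 20 when sgL1 4 was left out, 50 and 40 without sgL1 6, 92 and 70 without sgL1 2, and 128 and 89 without sgL1 3. It was 252 and 292 without sgL1 5, and it grew to 616 and 501 without sgL1 1. Libraries 2, 3, 4 and 6, whose removal lowered the count most, were also the 4 with the GC measure farthest from 0. In 6 of 6 such fits 18 higher and 15 lower genes were called. With the offset, leaving out sgL1 1, 2 or 3 gave 45 to 48 higher and 52 to 54 lower genes, while leaving out sgL1 4, 5 or 6 gave 14 to 21 and 21 to 29.

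**Figure D5:**
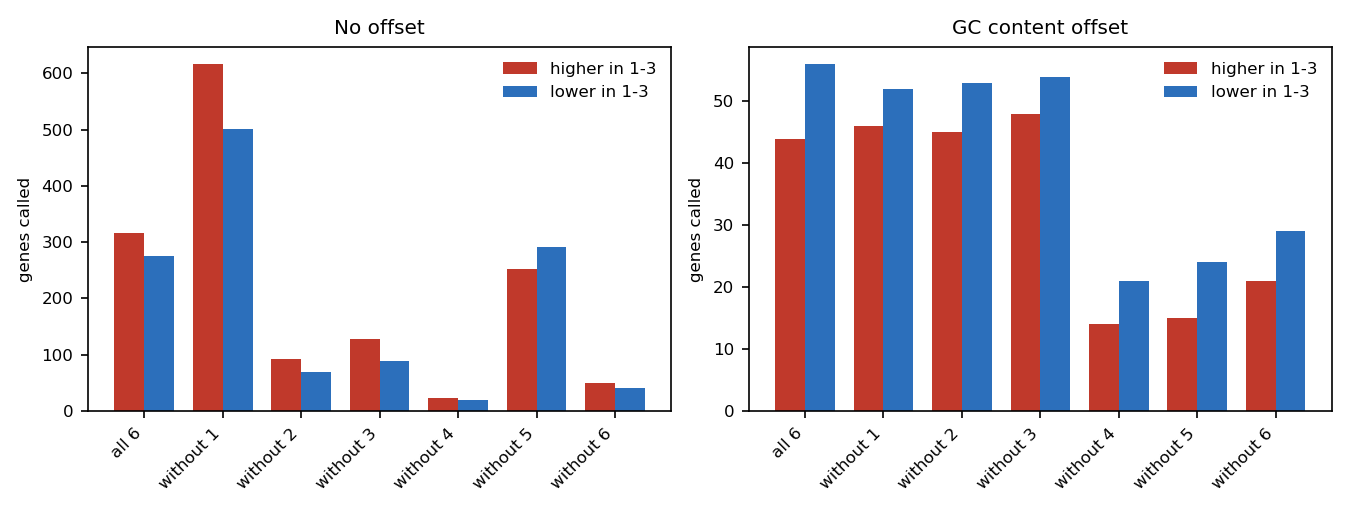
Number of genes called higher (red) and lower (blue) in libraries 1-3 with all 6 libraries and with each library left out, without the offset (left, 23 to 616 and 20 to 501) and with the GC content offset (right, 14 to 48 and 21 to 54). The vertical scales differ between the panels.

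With the offset, 5 higher and 14 lower genes were called in 6 of 6 fits with a library left out. Among the higher genes were the nuclear long noncoding RNA NEAT1, the plasminogen activator PLAT, the complement regulator CD55 and ZNF114. NEAT1 measured 190, 190 and 179 CPM in libraries 1-3 and 164, 151 and 155 CPM in 4-6, a log2 fold change of 0.25 (SE 0.05) and of 0.29 with the offset. The lower genes were UFL1, SPP1, IL1B, MMP1, THBS1, TGFBI, ITGA6, SERPINB2, HSP90AA1, MT2A, PMEPA1, the adhesion receptor gene ADGRG1, the tubulin gene TUBB4B and AC005912.1. NEAT1, PLAT, CD55, ZNF114, ADGRG1, TUBB4B and AC005912.1 were named after their values were seen. MT2A, a metallothionein with close paralogs, gave -0.13 (SE 0.03), or -0.19 with the offset. TUBB4B gave -0.072 (SE 0.035) without the offset, where it was not called, and -0.189 with it. Without the offset the calls of MT2A and CD55 held in 1 of 6 fits with a library left out. Those of ADGRG1 and PLAT held in 2 and 4.

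In the principal components of the 6 libraries, taken without the offset, sgL1 5 was the library of 4-6 nearest to libraries 1-3. A principal component helped to choose the sets, so this is a description. Over the 500 most variable genes the first component held 22.3% of the variance and the second 21.2%. On the first, libraries 1-3 lay at 4.93 to 6.57 and libraries 4, 5 and 6 at -13.7, 1.45 and -5.00. Over all tested genes the first component held 26.3% and the second 19.6%, with libraries 1-3 at 5.54 to 18.6 and libraries 4-6 at -20 to -4.54 on the first. Along it the order was sgL1 2, 3, 1, 5, 6 and 4, which is also their order in the GC measure. A link between the component and GC content was not tested. The root mean square log2 difference was 0.272 to 0.285 between libraries of the same set and 0.278 to 0.325 across the sets. The smallest difference across, between sgL1 1 and sgL1 5, thus lay within the range of the pairs inside a set, and the largest was between sgL1 2 and sgL1 4.

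Relative to sgCtrl the genes did not share 1 order of the sets. Among the 317 higher genes the sgCtrl mean lay between the sets in 178, below both in 97 and above both in 42. Among the 276 lower genes these numbers were 176, 36 and 64, and over all tested genes 4557, 5205 and 5075. Libraries 1-3 were the set farther from sgCtrl in 202 of the higher and 178 of the lower genes, 63.7% and 64.5%, against 54.7% of all tested genes. Libraries 1-3 were also the farther set in 20 of the 44 genes called higher with the offset. Libraries 4-6 were the farther set in 37 of the 56 genes called lower with it, and in 6717 of all 14837 tested genes. The offset entered only the choice of genes, and all these positions were taken from levels without it. UFL1, HILPDA and FOSL2 were farther from sgCtrl in libraries 1-3, whereas SPP1, IL1B, IL13RA2, MMP1, SPNS2, SLAMF7 and SCD were farther from it in libraries 4-6, the set with the higher UFL1 level. No test against sgCtrl was made for these orders.

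Chromosomes with GC-rich transcripts tended to hold more of the higher genes. Chromosome 19, with a median transcript GC content of 57.5%, held 64 of the higher and 2 of the lower genes among 1026 tested, with a median log2 fold change of 0.08 that became -0.01 with the offset. Chromosome 5, at 44.4% GC, held 7 of the higher and 35 of the lower genes among 701 tested, with a median of -0.07 that became -0.04. With the offset these counts were 4 and 3 on chromosome 19 and 1 and 8 on chromosome 5. Chromosomes of nearly the same GC content as chromosome 5 differed among themselves. Chromosome 2, at 44.9%, held 17 higher and 16 lower genes among 1016 tested, and chromosome 3, at 45.1%, held 14 and 13 among 858. Chromosome 6, at 45.2%, leaned like chromosome 5, with 3 and 20 among 657 and a median of -0.05 (-0.03 with the offset). Of all tested genes 2.14% were called higher and 1.86% lower without the offset. Chromosome 18 had a median of -0.10, and -0.05 with the offset.

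Promoters were searched for 12 short motifs in RefSeq windows (GRCh38.p14, 250 bases before to 50 after the start), which matched 10221 of the tested genes by symbol. The AP-1 motif TGANTCA, which reads the same on both strands, was in 8 of the 33 matched promoters of genes higher with the offset, 24.2%, against 4.67% of the tested genes' promoters and 7.73% of all RefSeq promoters. It was in 2 of 39 matched promoters of genes lower with the offset, 5.13%, in 6.00% of those of genes higher without the offset and in 2.74% of those lower without it. Of the 44 higher and 56 lower genes with the offset, 33 and 39 had a matched promoter. MMP1, MMP9, IL13RA2, SPNS2 and HILPDA were among those without one, so their promoters were not searched. This motif was singled out of the 12 after the shares were seen, the share rests on few genes, and a match is not a bound site. The motif with the bases on either side is shown, in capitals and 5′ to 3′ on the gene's strand, for those of the 10 genes where it lies before the start, so that its place among unlike flanks can be seen.
IL11, chr19:55370523-55370589, minus strand: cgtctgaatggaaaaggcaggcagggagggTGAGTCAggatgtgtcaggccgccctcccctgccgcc
F3, chr1:94541933-94542009, minus strand: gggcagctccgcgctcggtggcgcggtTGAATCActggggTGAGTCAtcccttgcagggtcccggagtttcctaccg
HSPA5, chr9:125241491-125241557, minus strand: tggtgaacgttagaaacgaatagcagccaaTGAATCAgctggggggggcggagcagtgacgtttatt
ANKRD1, chr10:90921246-90921312, minus strand: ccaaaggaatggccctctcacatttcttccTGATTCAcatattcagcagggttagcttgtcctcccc
JCAD, chr10:30115567-30115633, minus strand: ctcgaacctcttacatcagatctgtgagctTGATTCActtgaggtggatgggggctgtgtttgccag
TNFSF15, chr9:114792614-114792680, minus strand: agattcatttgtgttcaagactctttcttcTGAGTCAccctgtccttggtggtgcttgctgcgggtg
PLEKHG4, chr16:67278075-67278141, plus strand: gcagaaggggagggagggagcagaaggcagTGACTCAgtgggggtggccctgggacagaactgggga
SERPINB2, chr18:63887573-63887639, plus strand: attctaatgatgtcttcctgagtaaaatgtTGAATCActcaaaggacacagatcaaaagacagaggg
MT2A, chr16:56608450-56608516, plus strand: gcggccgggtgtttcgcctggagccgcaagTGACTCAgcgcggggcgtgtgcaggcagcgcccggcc

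The first 7 of these genes were higher in libraries 1-3 with the offset, as was FOSL2, whose motif lies after the start, and SERPINB2 and MT2A were lower. Several calls depended on a library: with the offset and a library left out, the call held in 1 of 6 fits for TNFSF15, in 2 for HSPA5, ANKRD1 and PLEKHG4, in 4 for JCAD, and in 5 for IL11, F3 and FOSL2. The share of 8 in 33 depends on them. F3, the initiator of blood clotting known as tissue factor, carries the motif in duplicate, 223 bases before the start. F3 measured 157, 156 and 147 CPM in libraries 1-3, 141, 133 and 136 CPM in 4-6 and 179 to 180 CPM in sgCtrl. Its log2 fold change was 0.16 (SE 0.05), or 0.21 with the offset. ANKRD1, a cytoskeletal response gene, gave 0.09 (SE 0.04) and 0.14 with the offset, TNFSF15, a cytokine of the TNF family, 0.60 (SE 0.15) and 0.66, and JCAD, a junctional protein, 0.56 (SE 0.12) and 0.56. The PLEKHG4 value went from 0.41 (SE 0.06) to 0.27. ANKRD1, JCAD, TNFSF15 and PLEKHG4 were named after their values were seen.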

How the data were processed

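Per the labels' protocols, total RNA was isolated with TRIzol before Illumina library preparation. The tools named in the submitters' processing notes are STAR 2.7.7a, fastp 0.20.1 and featureCounts 2.0.0, with GRCh38; whether counting used the strand is not given there. The authors deposited whole-number counts per gene, not normalized, and a table of FPKM values. The counts entered the main test, and FPKM values only an alternative.

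The 627 of 59362 rows without a symbol (0.358% to 0.410% of counts) were left out. A count of 0 allows up to 3 counts, 0.176 to 0.195 CPM; such limits cover counting error only. Counts of the 6 sgL1 libraries were fitted with edgeR 4.0.16 (R 4.3.3): filterByExpr, TMM, robust quasi-likelihood F test, no covariate, Benjamini-Hochberg adjusted p under 0.05. SE is the log2 fold change over the root of F, and the common biological coefficient of variation was 5.57%. CPM was TMM-scaled over 9 libraries. GC content, length and coordinates are those of GENCODE 29 and its longest transcript per gene, found for 14771 of the 14837 tested genes. The GC content offset was a loess curve (span 0.5) fitted per library.

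The sets, 43 gene lists (1015 of 1016 genes found) and named genes were chosen with earlier results of these data known. Named are the UFMylation genes, the 12 most raised and 12 most lowered protein-coding genes (called, unique symbol, mean of at least 1 CPM over the 6 libraries, no overlap between sets), up to 4 called members per list with the smallest adjusted p, SPP1, IL13RA2 and SPNS2. The fit was repeated with DESeq2 1.42.0, limma-voom 3.58.1 with quality weights, scaling by RLE, by upper quartile or by library size, other filters and thresholds, all 9 libraries, non-robust dispersions, limma on log2(FPKM + 1) or log2(FPKM + 0.1), and each library left out. Both GC offsets were added after the data were seen.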

Additional observations from a re-analysis of the deposited data

Results flagged for a closer look

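Among 104 groups of 6 values examined in the sgL1 libraries, 1 had a value flagged as far from the rest, while chance flags about 1 in 20 such groups. UFSP1, a UFM1-specific protease, measured 0.952 CPM in sgL1 4, or 16 counts, and 1.24 to 1.36 CPM, 21 counts each, in the other 5 libraries. The value is far only relative to those 5 equal counts, since counts this low carry a counting error of about the size of this gap. Its log2 fold change between the sets was 0.17 (SE 0.33), not called.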

How the results depend on the processing

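No paired analysis was possible because libraries 1-3 and 4-6 share no replicate number. The 317 higher and 276 lower genes stayed within 1.5 times under RLE (325 and 276), upper-quartile (362 and 195) and library-size scaling (367 and 199), no expression filter (385 and 339), 1 CPM in 3 libraries (342 and 312), DESeq2 (309 and 310) and limma-voom (346 and 306); the lower count became 426 with all 9 libraries in the fit, beside 441 higher. They became 163 and 126 with non-robust dispersions, 60 and 42 at an adjusted p under 0.01, 0 and 2 against a 1.5-fold change (edgeR's treat test, 50 genes at an unadjusted p under 0.05), 3 and 6 on log2(FPKM + 1), 3 and 7 on log2(FPKM + 0.1), 5 and 8 at a mean FPKM of at least 1, 44 and 56 with the GC content offset, and 51 and 68 with GC content and length. Leaving out a library gave 23 to 616 higher and 20 to 501 lower genes. With the offset it gave 14 to 48 and 21 to 54: 14 and 21 without sgL1 4, 15 and 24 without sgL1 5, and 21 and 29 without sgL1 6. Of the 100 named genes, 0 of those called reversed in these fits; 71 lost their call without sgL1 4, 61 without sgL1 6, 50 without sgL1 2, 39 without sgL1 3, 31 without sgL1 5, 11 without sgL1 1 and 63 with the offset. UFL1 in libraries 1-3 was 64.1% of its level in 4-6, 64.3% by library size and 63.9% by FPKM. The causes were not tested. Only 3 libraries a set, no stated separate cultures and a choice of sets made on these values limit every count.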
